A study of Mus musculus with 19 samples.

Results

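A set of 35 T cell and natural killer (NK) cell genes was followed in RNA-seq libraries of sorted mouse spleen myeloid cells. The genes were found by matching symbols in the deposited table, and all 35 were among its 38887 genes; 32 of the 35 were expressed enough to be tested, and Gzmb, Klra4 and Klra8 were not. The cells were myeloid-derived suppressor cells, myeloid cells defined by their capacity to restrain T cell responses. PMN-MDSC are the neutrophil-like form, gated as CD11b+ Ly6Cint Ly6G+, and M-MDSC are the monocyte-like form, gated as CD11b+ Ly6Chigh Ly6G-. Newborn mice had an age of 7 days and adult mice of 6 to 8 weeks. The groups were newborn PMN-MDSC (5 libraries), adult PMN-MDSC (6 libraries), newborn M-MDSC (5 libraries) and adult M-MDSC (3 libraries), and the labels name no other treatment or genotype. Neither strain nor sex nor the number of mice behind a library was given in the sources used here, so the p-values measure only the spread between libraries. The protocols describe CD11b bead enrichment followed by a sort, and also a column isolation with Ly6G antibody for PMN-MDSC beside a sort for M-MDSC, without saying which library had which.

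T cells recognise antigen through a receptor whose signal is carried by the CD3 chains and the zeta chain. The kinase Lck phosphorylates these chains, Zap70 binds them, and the adaptor Lat passes the signal on. NK cells have no such receptor and are governed by a balance of activating and inhibitory surface receptors; both cell types kill with perforin and granzymes. Spleen holds large numbers of T, B and NK cells, and the genes followed here are used to mark T and NK cells against myeloid cells. Single members are also known outside T and NK cells, among them Cd2 and Cd5 on mouse B cells and Cd4 on some dendritic cells and macrophages.

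The sort was checked on the genes of the gate, Ly6g, Ly6c2 and Itgam (which encodes CD11b). Ly6g reached at most 1.85 CPM in newborn M-MDSC and 0.830 CPM in adult M-MDSC, against 176 to 245 CPM in newborn PMN-MDSC and 12.1 to 24.7 CPM in adult PMN-MDSC (CPM, counts scaled to a common library size). Ly6c2 did not separate the cell types in newborns, at 447.5 to 1068 CPM in newborn M-MDSC, against 393 to 478 CPM in newborn PMN-MDSC, but did in adults, at 305 to 810 CPM in adult M-MDSC, against 32.2 to 52.6 CPM in adult PMN-MDSC. Itgam lay at 555.5 to 1014 CPM in newborn M-MDSC and 641 to 748 CPM in adult M-MDSC, against 3259 to 4020 CPM in newborn PMN-MDSC and 524.5 to 632.5 CPM in adult PMN-MDSC. Ccr2, a monocyte chemokine receptor that was not part of the gate, lay at 228 to 941 CPM in newborn M-MDSC and 300.3 to 700.3 CPM in adult M-MDSC, against 3.29 to 6.53 CPM in newborn PMN-MDSC and 6.58 to 22.7 CPM in adult PMN-MDSC. Csf1r, also not part of the gate, overlapped in newborns, at 592.5 to 1237 CPM in M-MDSC, against 467.7 to 600.2 CPM in PMN-MDSC. In adults it lay at 1940 to 2872 CPM in M-MDSC, against 528.5 to 992.3 CPM in PMN-MDSC. Kdm5d, on the Y chromosome, had counts in all 10 newborn libraries and 0 counts in all 9 adult libraries, so that age and the presence of male tissue cannot be told apart.

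Depth differed between the 2 batches named in the labels. Total counts were 827744 to 2965896 in the 10 libraries of batch 1 and 14026193 to 45135933 in the 9 libraries of batch 2, and a count of 0 allowed up to 3.29 CPM in the shallowest library and 0.0601 CPM in the deepest. The 3 batch 2 M-MDSC libraries stood apart. Adult replicate 28 and newborn replicate 77 had counts in 11549 and 11823 genes at totals of 16896783 and 18244049, against 13169 to 16365 genes in the shallower batch 1 libraries and 17512 to 19263 in batch 2 PMN-MDSC. Newborn replicate 79 had 15362 genes, within the batch 1 range, at a total of 23344379. Newborn replicate 77 had 0 counts in 23 of the 35 members and replicate 79 in 16, against 7 to 11 in newborn M-MDSC of batch 1, while replicate 77 held 308 counts of Lck, 242 of Il2rb and 208 of Tbx21. Adult replicate 28 had 0 counts in 8 members, Cd3g, Il7r, Klrk1, Tbx21 and Ncr1 among them, beside 1436 counts of Lck. The batch 1 PMN-MDSC libraries also resembled single batch 2 libraries: in 5 pairs of the same group the deviations from the group mean correlated across genes at 0.35 to 0.62, against -0.45 to 0.16 for the other pairs. Within these pairs the summed level of the 35 genes was 136 and 137, 96.9 and 98.5, 225 and 264, 412 and 407, and 351 and 374 CPM, and the labels do not say whether paired libraries came from separate samples.

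The genes of the CD3 cluster are described first, because Cd3d departed from the other members. Cd3g (chr9:44969572-44980431, minus strand), Cd3d (chr9:44981786-44987339, plus strand) and Cd3e (chr9:44998740-45009627, minus strand; GRCm38, GENCODE M21) lie side by side, and the starts of Cd3g and Cd3d are 1355 bases apart. Their start regions are shown so that neighbouring genes with different behaviour can be compared by sequence. Each run is 300 bases around the start from RefSeq (GRCm38.p6), 5′ to 3′ on the gene's own strand, with the ETS core GGAA or its complement TTCC in capitals. The windows are chr9:44981536-44981835 (plus strand) for Cd3d, chr9:45009562-45009861 (minus strand) for Cd3e and chr9:44980382-44980681 (minus strand) for Cd3g.
Cd3d: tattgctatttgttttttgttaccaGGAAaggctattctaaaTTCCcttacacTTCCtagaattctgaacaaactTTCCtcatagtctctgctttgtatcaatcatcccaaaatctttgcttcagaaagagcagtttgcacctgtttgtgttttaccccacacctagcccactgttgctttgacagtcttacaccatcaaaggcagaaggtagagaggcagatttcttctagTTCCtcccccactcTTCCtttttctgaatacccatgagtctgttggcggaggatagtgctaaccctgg
Cd3e: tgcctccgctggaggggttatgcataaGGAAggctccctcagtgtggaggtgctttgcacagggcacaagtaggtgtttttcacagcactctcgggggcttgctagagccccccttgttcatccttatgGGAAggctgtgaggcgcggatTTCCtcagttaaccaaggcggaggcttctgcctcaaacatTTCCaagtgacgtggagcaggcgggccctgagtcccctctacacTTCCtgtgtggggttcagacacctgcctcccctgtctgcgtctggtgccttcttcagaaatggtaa
Cd3g: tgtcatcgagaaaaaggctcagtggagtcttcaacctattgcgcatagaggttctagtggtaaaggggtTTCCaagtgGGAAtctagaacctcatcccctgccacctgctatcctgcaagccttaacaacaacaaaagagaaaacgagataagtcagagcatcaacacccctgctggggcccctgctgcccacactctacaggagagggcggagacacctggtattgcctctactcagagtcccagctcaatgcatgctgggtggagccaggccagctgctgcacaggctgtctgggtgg
Counted on both strands, the ETS core matched 6 times in Cd3d, 5 times in Cd3e and 2 times in Cd3g, and 96% of 32851 promoter windows of this length held it. GATA matched 2 times in Cd3d and 2 times in Cd3g and had 0 matches in Cd3e, against 57.9% of windows with a match. The E-box CANNTG matched 1, 2 and 4 times in Cd3d, Cd3e and Cd3g (72.3% of windows), TTNNGNAA, a C/EBP motif, 2, 1 and 0 times (40.7%), and TGTGGT, a RUNX core, 0 times in each (16.8%). These matches describe the letters of the windows only. RefSeq start regions were found for 25 of the 35 members.

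The summed level of the T and NK cell genes was lower in newborn libraries than in adult libraries of the same cell type. Summed over the 35 genes, the level was 78.9, 105, 86.6, 70.15 and 45.7 CPM in newborn M-MDSC, against 364, 998 and 649 CPM in adult M-MDSC. The highest newborn M-MDSC library thus lay below the lowest adult one. In PMN-MDSC the sum was 136, 96.9, 137, 98.5 and 109 CPM in newborns, against 225 to 412 CPM (median 362) in adults, again without overlap. Means were 77.2 ± 21.7 and 670.4 ± 318 CPM in newborn and adult M-MDSC, and 116 ± 19.6 and 339 ± 77.4 CPM in newborn and adult PMN-MDSC (SD, n = 5, 3, 5 and 6). In bulk samples, fewer cells of a type and less RNA per cell cannot be told apart.

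**Figure D1:**
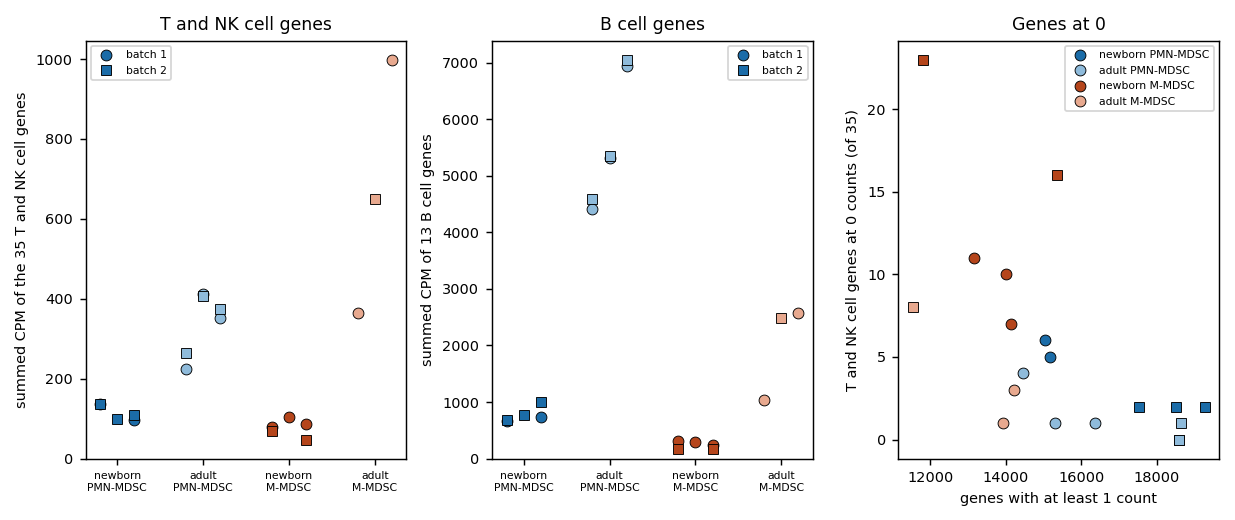
Summed CPM of the 35 T and NK cell genes (left) and of the 13 B cell genes (middle) in each library by group, and the number of the 35 genes with 0 counts against the number of genes with at least 1 count (right); symbols give the batch. The 35 genes sum to 45.7 to 137 CPM in newborn libraries and 225 to 998 CPM in adult libraries, the B cell genes to 173 to 1004 CPM in newborns and 1041 to 7048 CPM in adults, and newborn M-MDSC replicate 77 has 23 of the 35 genes at 0.

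By age, the sums moved in the same direction as those of the B cell and plasma cell genes. Other markers of spleen cells were mixed. Between the cell types, the 35 genes and the B cell genes both had lower sums in newborn M-MDSC than in newborn PMN-MDSC. In adults these sums ran apart. The 35 genes averaged 670 CPM in adult M-MDSC and 339 CPM in adult PMN-MDSC, against 2033 and 5610 CPM for the B cell genes. The 13 B cell genes summed to 661 to 1004 CPM in newborn PMN-MDSC and 4421 to 7048 CPM in adult PMN-MDSC, and to 173 to 305 CPM in newborn M-MDSC and 1041 to 2576 CPM in adult M-MDSC. All 13 were lower in newborns in both cell types by edgeR's quasi-likelihood test. Erythroid genes went the other way in PMN-MDSC, with 9 of 10 higher in newborns (sums of 2997 to 5477 CPM, against 110 to 445 CPM in adults), and were called in neither direction in M-MDSC, where the sums were 0.985 to 2851 CPM in newborns and 25.2 to 507 CPM in adults. Of 8 splenic macrophage genes, 3 were lower in newborn PMN-MDSC and 7 in newborn M-MDSC. Plasma cell genes were lower in newborns for 5 of 6 tested in each cell type and dendritic cell genes for 1 of 10 in each, and of 2 tested genes of mast cells and basophils 1 was higher in newborns in each; of 3 platelet genes 1 was higher in newborn PMN-MDSC and 0 in newborn M-MDSC. Over all tested genes, 20.5% were called lower and 27.1% higher in newborn PMN-MDSC, and 14.3% and 15.9% in newborn M-MDSC. The part of these other spleen cells in the T and NK gene results was not tested.

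**Figure D2:**
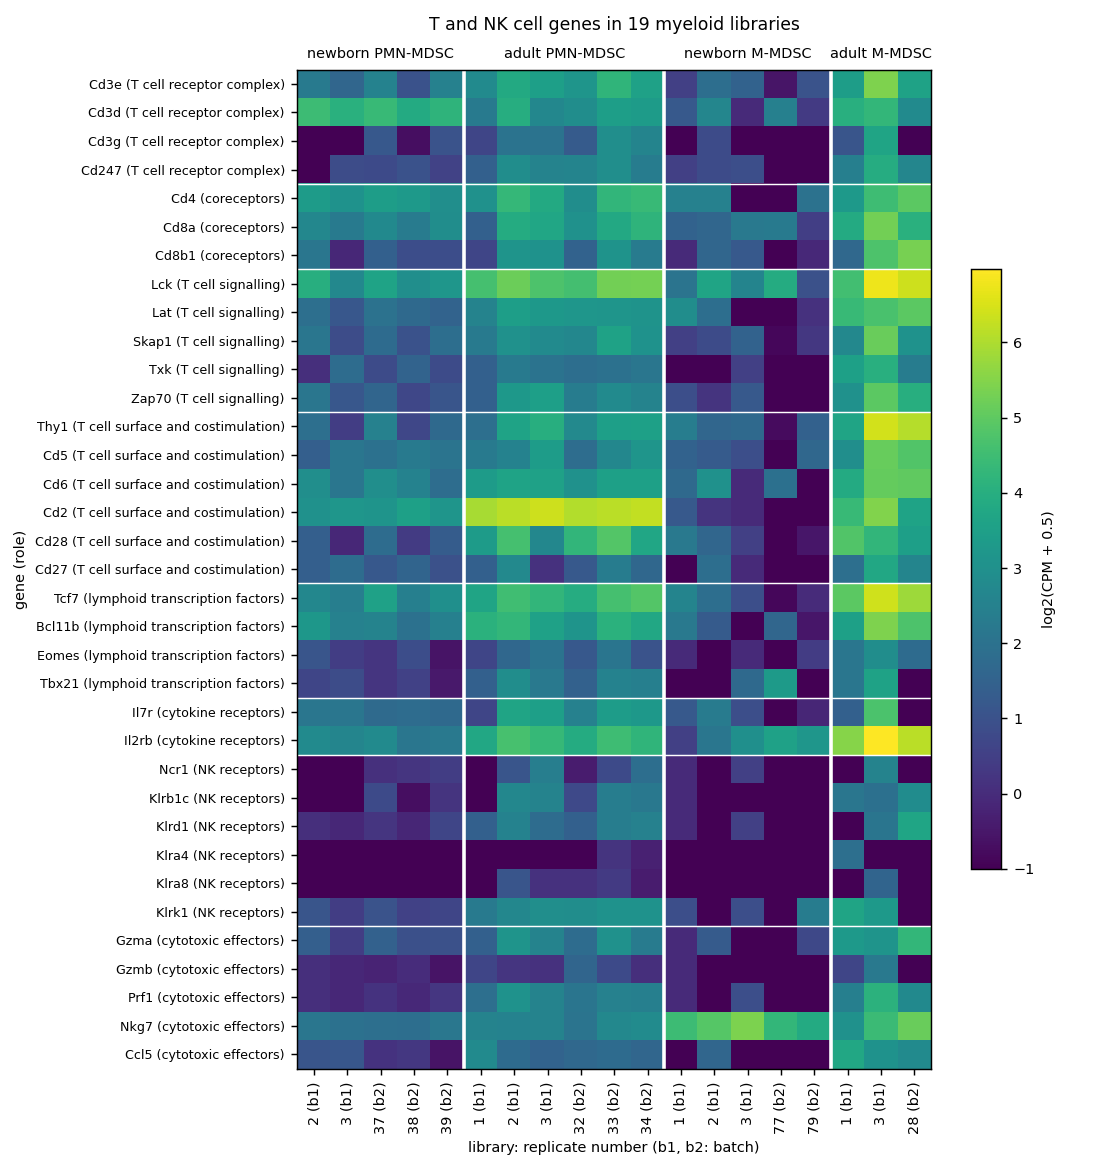
Level of each of the 35 genes (rows, by role) in each of the 19 libraries (columns, by group), with colour giving CPM on a log2 scale; the darkest cells are genes with 0 counts, and white lines separate groups and roles. Newborn M-MDSC hold up to 23 dark cells of 35 in 1 library. Cd3e, Cd3d, Cd8a, Lck, Tcf7, Thy1, Skap1, Il2rb and Nkg7 have counts in every library.

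The age comparison was tested gene by gene with edgeR's quasi-likelihood test across all genes, with p-values adjusted over the 12943 tested genes and called at adjusted p under 0.05. In M-MDSC, 27 of the 32 tested members were lower in newborns and 0 higher, beside 14.3% of all tested genes called lower and 15.9% called higher. The median log2 fold change of the members was -4.05, beside 0.01 over all tested genes. In PMN-MDSC, 11 of 32 were lower and 0 higher, beside 20.5% of all genes called lower and 27.1% called higher, and the medians were -1.54 and -0.05. Within batch 1 alone, 22 of 29 tested members were lower in newborn M-MDSC and 5 in newborn PMN-MDSC, beside 14.3% and 12.9% of all genes called lower. Within batch 2 alone 19 and 7 of 35 were lower, beside 7.48% and 11.7% of all genes. Batch 2 holds 1 adult M-MDSC library, replicate 28, so every batch 2 result on adult M-MDSC rests on that library, assumed to vary like the other groups. Without the batch 1 PMN-MDSC libraries 4 of 34 tested members were called lower in newborn PMN-MDSC, beside 7.59% of all genes. Cd2, Cd28 and Il2rb were the 3 called in both fits. Without the batch 2 M-MDSC libraries, an alternative added after the data were seen, 26 were lower and 1, Cd3d, higher in newborn PMN-MDSC, and 29 were lower and 1, Nkg7, higher in newborn M-MDSC, beside 30.9% and 20% of all genes called lower. Fitted on M-MDSC libraries alone, 12 of 22 tested members were lower in newborns, beside 5.57% of all genes. With upper-quartile scaling 16 members were lower in newborn PMN-MDSC, and the split over all genes was 2756 higher and 3552 lower, beside 3514 higher and 2657 lower with TMM scaling. A member could pass the expression filter through adult libraries alone. Without that filter, 27 in M-MDSC and 10 in PMN-MDSC of the 35 were called lower, beside 7.75% and 10.6% of all genes. Of the 11 called in PMN-MDSC, Cd2 and Cd28 were called under all 32 alternatives, while Cd247 lost its call in 21 of 32, Tcf7 in 13, Thy1 in 11, Cd3e in 7, Klrb1c in 6, Lck in 3, Prf1 and Il2rb in 1, and Klrd1 in 15 of 31. The single libraries without which Cd3e was not called were adult replicate 33 and newborn replicates 2, 3 and 38, and for Klrb1c they were adult replicate 2 and the same 3 newborn replicates. In M-MDSC, Cd3g lost its call in 11 of 30 alternatives, Cd4 in 4 of 32 and Klrd1 in 3 of 30. Cd3d, Gzma, Eomes, Cd5, Cd6 and Cd27 lost it in 2 each, and Cd247, Cd8a, Lat, Klrb1c and Ccl5 in 1 each. With single libraries left out, Cd3g lost its call without adult PMN-MDSC replicate 2, 3 or 33. It also lost it without adult M-MDSC replicate 3 or newborn M-MDSC replicate 1, 3, 77 or 79. Klrd1 lost its call without adult M-MDSC replicate 28 and Cd27 without adult M-MDSC replicate 3. All newborn values lay below all adult values for 25 members in M-MDSC (10.4% of all genes) and for 15 in PMN-MDSC (23%).

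**Figure D3:**
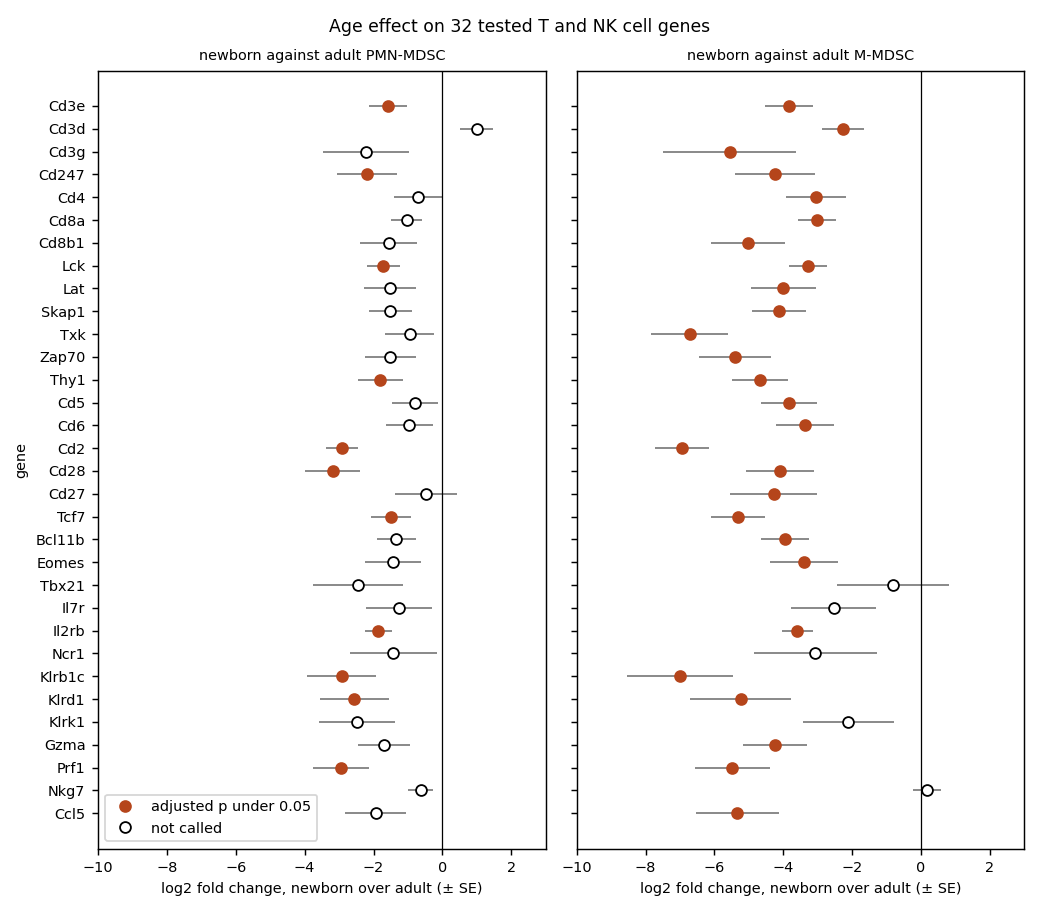
Log2 fold change of newborn over adult for each tested member in PMN-MDSC (left) and in M-MDSC (right), with bars of 1 SE; filled points were called at adjusted p under 0.05. In M-MDSC 27 of 32 were called lower and in PMN-MDSC 11; Cd3d in PMN-MDSC (0.99) and Nkg7 in M-MDSC (0.18) are the points above 0.

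All 4 genes of the T cell receptor complex were lower in newborn M-MDSC, beside 14.3% of all tested genes. The values below list batch 1 libraries before batch 2 libraries of a group. Cd3e had 0.929, 3.21, 2.32, 0.188 and 1.57 CPM in newborn M-MDSC, against 10.4, 42.8 and 11.7 CPM in adult M-MDSC (log2 fold change -3.84 ± 0.69, adjusted p = 0.000349). Cd3d had 1.86, 5.77, 0.463, 5.02 and 0.765 CPM in newborn M-MDSC, against 15.9, 19.1 and 6.56 CPM in adult M-MDSC (-2.26 ± 0.61, adjusted p = 0.00856), and its adult replicate 28 lay close to the 2 highest newborn libraries. The zeta chain gene Cd247 had 0.929, 1.28, 1.39, 0 and 0 CPM in newborn M-MDSC, against 4.94, 14.9 and 5.76 CPM in adult M-MDSC (-4.24 ± 1.15, adjusted p = 0.00934), with newborn and adult libraries again apart. Of its exonic 50-base windows, 55.9% occur in another annotated gene, chiefly Pou2f1 on the opposite strand, and no source states that strand was used in counting, so its level is uncertain. Cd3g had 0, 1.28, 0, 0 and 0 CPM in newborn M-MDSC, against 1.65, 12 and 0 CPM in adult M-MDSC, that is 2 against 32 pooled counts, a ratio of 38.5 with an exact binomial interval of 9.83 to 332 (adjusted p = 0.0376), and its groups overlapped, adult replicate 28 also being at 0. Adult replicate 3 held 29 of the 32 counts. Without it 2 counts stood against 3 and the call was lost. Without replicate 28 the ratio was 197. Here and below, a ratio or bound without replicate 28 sets shallow adult libraries of batch 1 against newborn libraries of both batches. It therefore mixes depth with age and is no check of stability.

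In PMN-MDSC the receptor genes were divided. Cd3e had 4.38, 2.59, 5.3, 1.53 and 5.22 CPM in newborn PMN-MDSC, against 6.58 to 18 CPM (median 11.1) in adult PMN-MDSC (-1.57 ± 0.55, adjusted p = 0.025), with every newborn library below every adult one. Cd247 had 0, 1.3, 1.23, 1.53 and 0.986 CPM in newborn PMN-MDSC, against 2.19 to 7.19 CPM (median 5.45) in adult PMN-MDSC (-2.19 ± 0.88, adjusted p = 0.0485), and Cd3g 0, 0, 1.77, 0.113 and 1.57 CPM in newborn PMN-MDSC, against 1.1 to 7.11 CPM (median 3.62) in adult PMN-MDSC, which was not called (-2.22 ± 1.25, adjusted p = 0.156). Cd3d ran against them: it had 21.3, 16, 20.2, 14.2 and 17.8 CPM in newborn PMN-MDSC, against 4.39 to 15.2 CPM (median 8.49) in adult PMN-MDSC. The mean of Cd3d was 17.9 ± 2.95 CPM for newborns and 8.84 ± 3.88 CPM for adults (SD, n = 5 and 6), a difference not called by edgeR's test over all genes (log2 fold change 0.99 ± 0.48, adjusted p = 0.0952). Only adult replicate 2, at 15.2 CPM, reached the newborn range. Fitted on the PMN-MDSC libraries alone, Cd3d was called higher in newborns (0.94, adjusted p = 0.00255), and so it was without newborn M-MDSC replicate 77 (0.99, adjusted p = 0.0462); over the alternatives its log2 fold change was 0.76 to 1.2.

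The ratio of Cd3d to Cd3e within each library, from which the library's scaling drops out, was separated by age in PMN-MDSC. The ratio of Cd3d to Cd3e counts was 4.88, 6.17, 3.82, 9.26 and 3.41 in newborn PMN-MDSC, against 0.667, 1.1, 0.556, 0.837, 0.582 and 0.872 in adult PMN-MDSC. The mean log2 ratio was 2.36 ± 0.58 in newborns and -0.42 ± 0.38 in adults, a difference of 2.79 (exact two-sided permutation test, p = 0.00216, the smallest the 462 splits allow). The difference was 2.72 within batch 2 and 2.89 within batch 1 (exact permutation p = 0.1 in each, the smallest possible there). The first p takes the 11 libraries as independent; with the 5 pairs of similar libraries each averaged to 1 value, the difference was 2.69 with 3 values at each age (exact permutation p = 0.1, the smallest possible). That averaging was added after the data were seen. This ratio was chosen after the values were seen, so its p-values do not test an expectation set beforehand. It also moves with Cd3e, whose log2 fold change was -1.57, against 0.99 for Cd3d, which was not called. In M-MDSC the same ratio had no such split, at 2, 1.8, 0.2, 26.8 and 0.487 in newborns, against 1.53, 0.447 and 0.562 in adults. Cd3d made up 15.5 ± 0.931% of the summed level of the 35 genes in newborn PMN-MDSC, against 2.54 ± 0.691% in adult PMN-MDSC. Only 0.284% of the exonic 50-base windows of Cd3d occur in another annotated gene.

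**Figure D4:**
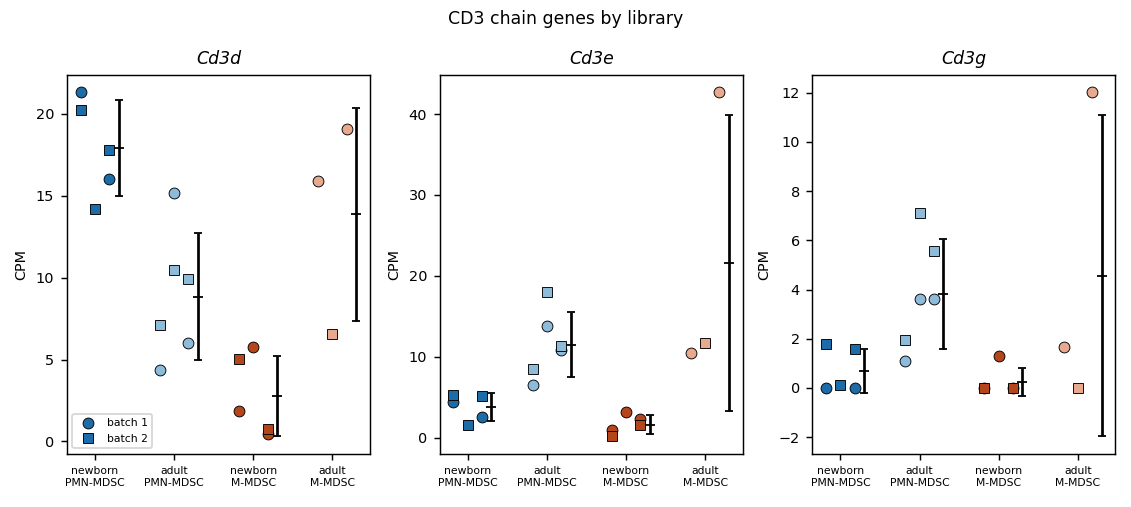
CPM of Cd3e, Cd3d and Cd3g in each library by group, with the mean and SD as a bar and symbols for batch. In PMN-MDSC, Cd3e averages 3.8 CPM in newborns and 11.5 CPM in adults, while Cd3d averages 17.9 CPM in newborns and 8.84 CPM in adults.

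The coreceptors, which bind the antigen-presenting molecule beside the T cell receptor, were lower in newborn M-MDSC for 3 of 3 and called in neither direction in PMN-MDSC. Of all tested genes, 14.3% were lower in newborn M-MDSC, and 20.5% were lower and 27.1% higher in newborn PMN-MDSC. Cd8a had 2.32, 2.57, 4.17, 4.41 and 0.886 CPM in newborn M-MDSC, against 14.3, 38.6 and 16.3 CPM in adult M-MDSC (-3.02 ± 0.56, adjusted p = 0.000464). Cd8b1, the partner chain of Cd8a, had 0.464, 2.57, 1.85, 0 and 0.443 CPM in newborn M-MDSC, against 2.74, 26.2 and 40.0 CPM in adult M-MDSC (-5.02 ± 1.08, adjusted p = 0.00172), and Cd4 5.11, 5.13, 0, 0 and 3.5 CPM in newborn M-MDSC, against 9.32, 22 and 30.5 CPM in adult M-MDSC (-3.05 ± 0.88, adjusted p = 0.0136). Newborn and adult M-MDSC libraries did not overlap for any of the 3. In PMN-MDSC, Cd4 had 9.85, 7.78, 10.4, 9.24 and 7.25 CPM in newborn PMN-MDSC, against 7.08 to 20.2 CPM (median 16.2) in adult PMN-MDSC (-0.72 ± 0.70, adjusted p = 0.424) and Cd8a 6.02, 4.32, 6.4, 4.48 and 7.02 CPM in newborn PMN-MDSC, against 2.19 to 17.7 CPM (median 13.1) in adult PMN-MDSC (-1.04 ± 0.46, adjusted p = 0.0709). The groups overlapped for both, and Cd8b1 was not called either (-1.56 ± 0.82, adjusted p = 0.127).

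The signalling genes below the receptor were lower in newborn M-MDSC for 5 of 5, beside 14.3% of all tested genes. In newborn PMN-MDSC 1 of 5, Lck, was lower, near the 20.5% of all tested genes. Lck, the kinase that starts the signal, had 3.72, 12.2, 5.56, 14.4 and 1.45 CPM in newborn M-MDSC, against 23, 108 and 82.7 CPM in adult M-MDSC (-3.28 ± 0.56, adjusted p = 0.000236). It had 15.3, 6.05, 11.8, 7.14 and 8.53 CPM in newborn PMN-MDSC, against 23.7 to 38.9 CPM (median 31.2) in adult PMN-MDSC (-1.72 ± 0.48, adjusted p = 0.00655), with the groups apart in both cell types. Zap70, the kinase that docks on the phosphorylated chains, had 1.39, 0.641, 1.85, 0 and 0 CPM in newborn M-MDSC, against 7.68, 30.7 and 15.4 CPM in adult M-MDSC (-5.40 ± 1.04, adjusted p = 0.000679). Lat, the membrane adaptor downstream of Zap70, had 6.97, 3.21, 0, 0 and 0.604 CPM in newborn M-MDSC, against 20.3, 25.3 and 30.9 CPM in adult M-MDSC (-4.0 ± 0.95, adjusted p = 0.00384), and its 2 empty newborn libraries were replicates 3 and 77. Skap1, an adaptor that links the receptor to integrins, had 0.929, 1.28, 2.32, 0.0469 and 0.725 CPM in newborn M-MDSC, against 6.03, 35.3 and 7.89 CPM in adult M-MDSC (-4.13 ± 0.78, adjusted p = 0.000592). Txk, a Tec family kinase, had counts in 1 newborn M-MDSC library: it had 0, 0, 0.927, 0 and 0 CPM in newborn M-MDSC, against 11, 15.8 and 4.61 CPM in adult M-MDSC, that is 2 against 138 pooled counts, a ratio of 166 with an exact binomial interval of 45.2 to 1390 (adjusted p = 0.000167), or 357 without adult replicate 28. Zap70, Lat, Skap1 and Txk were not called in PMN-MDSC, with log2 fold changes of -1.51, -1.52, -1.51 and -0.95 and adjusted p of 0.108, 0.107, 0.0509 and 0.286.

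Among the surface molecules, 6 of 6 were lower in newborn M-MDSC, beside 14.3% of all tested genes. In newborn PMN-MDSC 3 of 6, Cd2, Cd28 and Thy1, were lower, beside 20.5%. Cd2, an adhesion molecule that costimulates T cells, had the smallest adjusted p of the members in both age comparisons. It had 7.66, 8.65, 8.13, 10.9 and 8.35 CPM in newborn PMN-MDSC, against 60.3 to 82.2 CPM (median 70.5) in adult PMN-MDSC (-2.92 ± 0.46, adjusted p = 3.57e-05), with the groups far apart. It had 1.86, 0.641, 0.463, 0 and 0 CPM in newborn M-MDSC, against 20.3, 43.6 and 11.9 CPM in adult M-MDSC (-6.95 ± 0.78, adjusted p = 2.52e-06), the newborn value resting on 6 counts in all. Cd2 was called in both age comparisons under every alternative that was run. B cell genes, which moved with it, are given above, and their part in the Cd2 result was not tested.

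Cd28, the main costimulatory receptor, had 2.19, 0.432, 3, 0.793 and 1.97 CPM in newborn PMN-MDSC, against 6 to 28 CPM (median 15.6) in adult PMN-MDSC (-3.18 ± 0.80, adjusted p = 0.00296), and 4.18, 2.57, 0.927, 0 and 0.201 CPM in newborn M-MDSC, against 27.4, 18.7 and 10.8 CPM in adult M-MDSC (-4.10 ± 0.98, adjusted p = 0.00391). Its newborn libraries lay below all adult ones in both cell types. Thy1, a surface glycoprotein of mouse T cells, had 3.28, 0.865, 5.2, 1.13 and 2.78 CPM in newborn PMN-MDSC, against 3.29 to 15.6 CPM (median 10.9) in adult PMN-MDSC (-1.80 ± 0.66, adjusted p = 0.0327), where adult replicate 1 at 3.29 CPM fell within the newborn range. In M-MDSC, Thy1 had 4.64, 2.57, 2.78, 0.0938 and 2.3 CPM in newborn M-MDSC, against 12.1, 85.5 and 67.5 CPM in adult M-MDSC (-4.67 ± 0.81, adjusted p = 0.000264). Cd5, a brake on receptor signalling, had 2.32, 1.92, 1.39, 0 and 2.7 CPM in newborn M-MDSC, against 7.13, 34.5 and 27.2 CPM in adult M-MDSC (-3.84 ± 0.82, adjusted p = 0.00165), and its relative Cd6 2.79, 7.7, 0.463, 3.38 and 0 CPM in newborn M-MDSC, against 14.3, 33.2 and 32 CPM in adult M-MDSC (-3.38 ± 0.84, adjusted p = 0.00524). Cd27, a costimulatory receptor of the TNF receptor family, had 0, 3.21, 0.463, 0 and 0 CPM in newborn M-MDSC, against 3.29, 13.3 and 5.7 CPM in adult M-MDSC (-4.28 ± 1.26, adjusted p = 0.0154), its highest newborn library, replicate 2, lying just under its lowest adult one, replicate 1. Cd5, Cd6 and Cd27 had log2 fold changes of -0.79, -0.96 and -0.48 in PMN-MDSC, with adjusted p of 0.354, 0.269 and 0.689.

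Of the 4 transcription factors, 3 were lower in newborn M-MDSC, beside 14.3% of all tested genes. In newborn PMN-MDSC 1, Tcf7, was lower, near the 20.5% of all tested genes. Tcf7, which encodes TCF-1 and acts from the earliest T cell precursors on, had 5.57, 3.21, 1.39, 0.0469 and 0.483 CPM in newborn M-MDSC, against 30.7, 83.8 and 54.8 CPM in adult M-MDSC (-5.32 ± 0.79, adjusted p = 5.85e-05). It had 6.02, 4.76, 11.3, 4.99 and 7.31 CPM in newborn PMN-MDSC, against 12.1 to 28 CPM (median 20.5) in adult PMN-MDSC (-1.49 ± 0.58, adjusted p = 0.0409), the highest newborn library lying just under the lowest adult one. Bcl11b, required for T lineage commitment, had 4.18, 1.92, 0, 2.58 and 0.201 CPM in newborn M-MDSC, against 11, 42.8 and 26.6 CPM in adult M-MDSC (-3.94 ± 0.70, adjusted p = 0.000309), and was not called in PMN-MDSC, with 8.76, 5.19, 5.47, 3.4 and 4.99 CPM in newborn PMN-MDSC, against 8.2 to 18.8 CPM (median 14.9) in adult PMN-MDSC (-1.34 ± 0.56, adjusted p = 0.0574). Eomes, a T-box factor of NK and memory T cells, had 0.464, 0, 0.463, 0 and 0.845 CPM in newborn M-MDSC, against 3.84, 7.06 and 2.94 CPM in adult M-MDSC (-3.41 ± 0.99, adjusted p = 0.0135). Tbx21, the other T-box factor, had 0, 0, 2.78, 9.75 and 0 CPM in newborn M-MDSC, against 3.84, 11.6 and 0 CPM in adult M-MDSC (-0.82 ± 1.62, adjusted p = 0.748): newborn replicate 77 with 208 counts and adult replicate 28 with 0 made the groups overlap. It was lower in every newborn than in every adult PMN-MDSC library but not called (-2.45 ± 1.31, adjusted p = 0.134).

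Of the cytokine receptors, Il2rb was lower in newborns of both cell types and Il7r was called in neither. Il2rb, the beta chain shared by the interleukin-2 and interleukin-15 receptors, had 0.929, 3.85, 7.41, 11.4 and 8.54 CPM in newborn M-MDSC, against 45.5, 125 and 70.9 CPM in adult M-MDSC (-3.59 ± 0.45, adjusted p = 9.88e-06). It had 6.57, 5.62, 6.53, 3.91 and 4.18 CPM in newborn PMN-MDSC, against 13.2 to 24.4 CPM (median 19) in adult PMN-MDSC (-1.86 ± 0.40, adjusted p = 0.000756), with no overlap between the groups. Il7r, the interleukin-7 receptor alpha chain, had 0 counts in adult M-MDSC replicate 28 and 25.7 CPM in replicate 3, and was not called in M-MDSC (-2.54 ± 1.23, adjusted p = 0.129) or in PMN-MDSC (-1.27 ± 0.96, adjusted p = 0.296).

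The NK receptors had few counts. Klrb1c, the NK1.1 antigen in strains that carry it, had 0, 0, 1.23, 0.113 and 0.638 CPM in newborn PMN-MDSC, against 0 to 5.94 CPM (median 4.36) in adult PMN-MDSC (-2.93 ± 1.00, adjusted p = 0.0217), adult replicate 1 being at 0. It had 0.464, 0, 0, 0 and 0 CPM in newborn M-MDSC, against 3.84, 3.32 and 6.85 CPM in adult M-MDSC, that is 1 against 134 pooled counts, a ratio of 323 with an exact binomial interval of 57 to 12800 (adjusted p = 0.00207). Adult replicate 28 held 119 of these 134 counts, and without it the ratio was 184. Klrd1, or CD94, which pairs with NKG2 receptors, had 0.547, 0.432, 0.667, 0.397 and 1.1 CPM in newborn PMN-MDSC, against 2.19 to 5.28 CPM (median 3.85) in adult PMN-MDSC (-2.56 ± 1.00, adjusted p = 0.0422), with the groups apart. In M-MDSC, Klrd1 had 0.464, 0, 0.927, 0 and 0 CPM in newborn M-MDSC, against 0, 3.74 and 12.5 CPM in adult M-MDSC, that is 3 against 226 pooled counts, a ratio of 181 with an exact binomial interval of 61.3 to 887 (adjusted p = 0.0108). Adult replicate 28 held 217 of the 226 counts, and without it the ratio was 36.9 and the gene was not called. Klrk1, the activating receptor NKG2D, was below all adult PMN-MDSC libraries in every newborn one but was not called (-2.48 ± 1.09, adjusted p = 0.0693), nor was it in M-MDSC (-2.11 ± 1.33, adjusted p = 0.251). Ncr1, the NK receptor NKp46, had 0, 0, 0.567, 0.68 and 0.87 CPM in newborn PMN-MDSC, against 0 to 4.8 CPM (median 1.44) in adult PMN-MDSC (-1.43 ± 1.26, adjusted p = 0.375). In M-MDSC its counts were 3 against 13 pooled counts, a ratio of 10.4 with an exact binomial interval of 2.87 to 57.1 (adjusted p = 0.213), all 13 adult counts being in replicate 3; without replicate 28 the ratio was 53.3.

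The Ly49 receptor genes Klra8 and Klra4 had 0 counts in all 10 newborn libraries. In adult PMN-MDSC they had 61 and 41 pooled counts, so that newborn PMN-MDSC were at least 14.4-fold and 9.67-fold lower against a floor of 3 counts over the group. Klra4 had counts in 2 of the 6 adult libraries, with 32 of the 41 in replicate 33, and without that library its bound was 4.35-fold. In adult M-MDSC each had 6 counts, all in 1 library, Klra4 in replicate 1 and Klra8 in replicate 3. Newborn M-MDSC were at least 4.82-fold lower for each, and no bound was left without the library that held the counts. Without adult replicate 28 the bound was 24.6-fold, but it then set adult libraries of batch 1 against newborn libraries of both batches. These floors cover counting error only, and neither gene was tested. Ly49 genes are close paralogs: 33.1% of the exonic windows of Klra8 and 4.68% of those of Klra4 occur in other annotated genes, as do 17% of those of Klrb1c, so reads may be divided among relatives.

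The cytotoxic effectors were lower in newborn M-MDSC for 3 of the 4 tested, beside 14.3% of all tested genes. In newborn PMN-MDSC 1, Prf1, was lower, near the 20.5% of all tested genes. Prf1, the pore-forming perforin, had 0.547, 0.432, 0.633, 0.453 and 0.696 CPM in newborn PMN-MDSC, against 3.29 to 7.92 CPM (median 5.04) in adult PMN-MDSC (-2.94 ± 0.82, adjusted p = 0.00608), and 0.464, 0, 1.39, 0 and 0 CPM in newborn M-MDSC, against 4.94, 17 and 6.39 CPM in adult M-MDSC (-5.48 ± 1.08, adjusted p = 0.000805). Newborn libraries were below all adult ones in both cell types. Gzma, granzyme A, had 0.464, 1.92, 0, 0 and 1.17 CPM in newborn M-MDSC, against 9.32, 8.3 and 18.7 CPM in adult M-MDSC (-4.23 ± 0.93, adjusted p = 0.00215), and was not called in PMN-MDSC, with 2.19, 0.865, 2.3, 1.42 and 1.45 CPM in newborn PMN-MDSC, against 2.19 to 8.25 CPM (median 4.96) in adult PMN-MDSC (-1.69 ± 0.75, adjusted p = 0.073). Ccl5, a chemokine of activated T and NK cells, had 0, 2.57, 0, 0 and 0 CPM in newborn M-MDSC, against 13.2, 7.89 and 6.51 CPM in adult M-MDSC (-5.33 ± 1.21, adjusted p = 0.0026), and in PMN-MDSC 1.64, 1.73, 0.633, 0.737 and 0.174 CPM in newborn PMN-MDSC, against 2.4 to 6.58 CPM (median 2.84) in adult PMN-MDSC (-1.94 ± 0.89, adjusted p = 0.081). Gzmb was not tested; it had 1 against 12 pooled counts, a ratio of 28.9 with an exact binomial interval of 4.28 to 1240 in newborn and adult M-MDSC (10 of the 12 in adult replicate 3, and a ratio of 148 without replicate 28), and at most 0.547 CPM in newborn PMN-MDSC and 2.56 CPM in adult PMN-MDSC.

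Nkg7, a granule membrane protein of cytotoxic lymphocytes, was called in neither age comparison. It had 21.4, 28.9, 41.2, 18.9 and 14.3 CPM in newborn M-MDSC, against 7.68, 21.2 and 35.1 CPM in adult M-MDSC (0.18 ± 0.41, adjusted p = 0.784). The groups overlapped, and in PMN-MDSC it had 3.83, 3.46, 3.23, 3.17 and 3.94 CPM in newborn PMN-MDSC, against 3.67 to 6.76 CPM (median 5.44) in adult PMN-MDSC (-0.63 ± 0.36, adjusted p = 0.158). The M-MDSC value depended on which libraries were used: the log2 fold change was 1.06 (adjusted p = 0.0453) without the batch 2 M-MDSC libraries and -1.04 (adjusted p = 0.15) in batch 2 alone. Nkg7 made up 32.1 ± 8.86% of the summed level of the 35 genes in newborn M-MDSC and 3.21 ± 1.9% in adult M-MDSC, against 3.12 ± 0.528% in newborn PMN-MDSC and 1.66 ± 0.421% in adult PMN-MDSC.

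Cell types were then compared within each age. In newborns, 1 of the 32 tested members was higher in M-MDSC than in PMN-MDSC, beside 18.7% of all tested genes, and 6 were lower, beside 23.4%. In adults, 3 were higher, beside 16.7%, and 1 was lower, beside 12.5%. Within batch 1 alone 1 member was higher and 2 lower in newborn M-MDSC, beside 11.7% and 15.2% of all genes, and 2 were higher and 0 lower in adult M-MDSC, beside 6.5% and 4.92%. Within batch 2 alone 1 was higher and 17 lower in newborns, beside 9.31% and 20.7%, and 2 were higher and 4 lower in adults, beside 11.5% and 24%, the adult split being turned round and resting on 1 adult M-MDSC library. The members' median log2 fold change of M-MDSC over PMN-MDSC was -1.66 in newborns (-0.13 over all genes) and 0.90 in adults (-0.13). M-MDSC and PMN-MDSC did not overlap for 1 member above (16% of all genes) and 3 below (22.5%) in newborns, and for 7 above (14%) and 1 below (15.7%) in adults.

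Nkg7 (chr7:43437073-43438249) was higher in M-MDSC at both ages. It had 21.4, 28.9, 41.2, 18.9 and 14.3 CPM in newborn M-MDSC, against 3.83, 3.46, 3.23, 3.17 and 3.94 CPM in newborn PMN-MDSC (2.80 ± 0.39, adjusted p = 1.28e-05). In adults it had 7.68, 21.2 and 35.1 CPM in M-MDSC, against 3.67 to 6.76 CPM (median 5.44) in PMN-MDSC (1.99 ± 0.38, adjusted p = 0.000726). The lowest M-MDSC library lay above the highest PMN-MDSC library at each age, and the newborn result was called under every alternative run (log2 fold change 2.14 to 3.13). The adult result was lost in batch 1 alone and without adult M-MDSC replicate 28.

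Cd2 (chr3:101275899-101287939) was lower in M-MDSC at both ages. In newborns it had 1.86, 0.641, 0.463, 0 and 0 CPM in M-MDSC, against 7.66, 8.65, 8.13, 10.9 and 8.35 CPM in PMN-MDSC (-5.72 ± 0.77, adjusted p = 9.39e-06). In adults it had 20.3, 43.6 and 11.9 CPM in M-MDSC, against 60.3 to 82.2 CPM (median 70.5) in PMN-MDSC (-1.69 ± 0.55, adjusted p = 0.0264), a call that was lost in batch 1 alone and without adult M-MDSC replicate 1 or 28. The ratio of Cd2 to Cd3e counts was 1.01 to 1.95 in adult M-MDSC, against 3.92 to 9.17 in adult PMN-MDSC. B cell genes were also lower in M-MDSC, for 13 of 13 in newborns and 11 of 13 in adults; their part in the Cd2 result was not tested.

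Il2rb (chr15:78479256-78495271) and Thy1 were higher in adult M-MDSC than in adult PMN-MDSC. Il2rb had 45.5, 125 and 70.9 CPM in adult M-MDSC, against 13.2 to 24.4 CPM (median 19) in adult PMN-MDSC (2.13 ± 0.41, adjusted p = 0.000711), with no overlap. Thy1 had 12.1, 85.5 and 67.5 CPM in adult M-MDSC, against 3.29 to 15.6 CPM (median 10.9) in adult PMN-MDSC (2.46 ± 0.68, adjusted p = 0.0113), and adult M-MDSC replicate 1 fell within the PMN-MDSC range. The call of Il2rb held under every alternative run, and that of Thy1 was lost in each batch alone, without the batch 1 PMN-MDSC libraries and without adult M-MDSC replicate 3 or 28. In newborns, Il2rb (0.40 ± 0.41, adjusted p = 0.457) and Thy1 (-0.42 ± 0.76, adjusted p = 0.69) were not called.

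**Figure D5:**
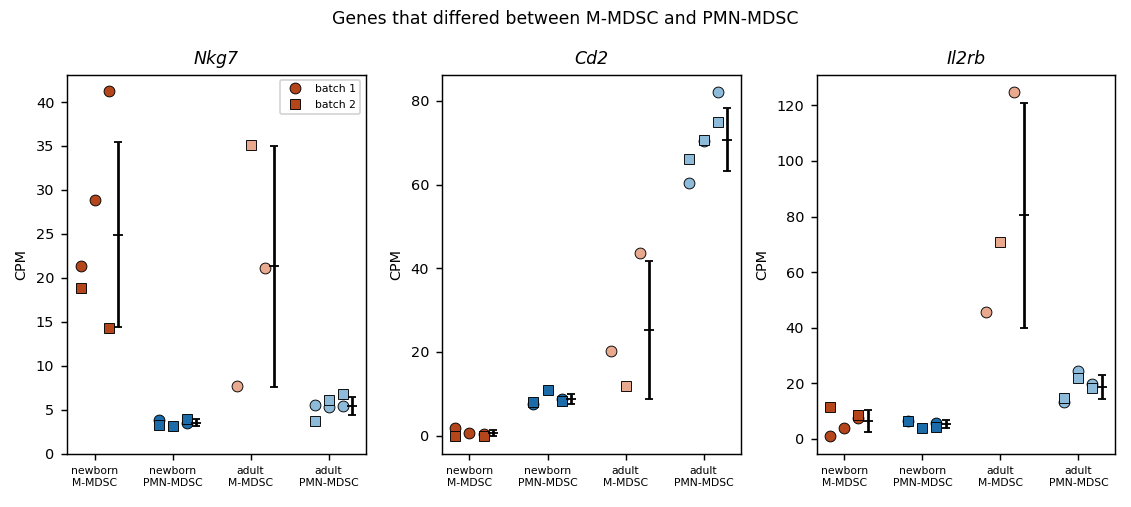
CPM of Nkg7, Cd2 and Il2rb in each library, with M-MDSC left of PMN-MDSC at each age, mean and SD as bars and symbols for batch. Every M-MDSC library lies above the PMN-MDSC libraries of its age for Nkg7 and below them for Cd2, and adult M-MDSC lie above adult PMN-MDSC for Il2rb, at 45.5 to 125 CPM.

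The other members called in newborns were lower in M-MDSC. Cd3d had 1.86, 5.77, 0.463, 5.02 and 0.765 CPM in newborn M-MDSC, against 21.3, 16, 20.2, 14.2 and 17.8 CPM in newborn PMN-MDSC (-2.72 ± 0.55, adjusted p = 0.000586), without overlap. Tcf7 (-2.45 ± 0.78, adjusted p = 0.0164), Bcl11b (-1.72 ± 0.64, adjusted p = 0.0366) and Zap70 (-2.61 ± 1.01, adjusted p = 0.0453) overlapped between the cell types, their newborn M-MDSC values running from 0.0469 to 5.57, 0 to 4.18 and 0 to 1.85 CPM and their newborn PMN-MDSC values from 4.76 to 11.3, 3.4 to 8.76 and 1.13 to 3.83 CPM. Txk had 2 against 110 pooled counts, a ratio of 41.5 with an exact binomial interval of 11.2 to 347 (adjusted p = 0.00266). Without the batch 2 M-MDSC libraries, 3 members remained of the 7 called in newborns, and Tcf7, Bcl11b, Txk and Zap70 were no longer called.

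The age effects themselves were compared between the cell types, as the log2 effect in M-MDSC minus that in PMN-MDSC. For 7 of the 32 tested members the effect was more negative in M-MDSC, beside 11.5% of all tested genes, and for 0 more positive, beside 6.61%; 19 members had an unadjusted p under 0.05. The 7 were Txk (-5.77 ± 1.31, adjusted p = 0.00444), Cd2 (-4.03 ± 0.93, adjusted p = 0.00513), Zap70 (-3.89 ± 1.27, adjusted p = 0.0395), Tcf7 (-3.83 ± 0.96, adjusted p = 0.00902), Cd3d (-3.25 ± 0.77, adjusted p = 0.00582), Bcl11b (-2.60 ± 0.87, adjusted p = 0.0454) and Il2rb (-1.73 ± 0.58, adjusted p = 0.0459). Of these, Txk rests on 2 newborn M-MDSC counts, Cd2 on 6, Zap70 on 8 and Tcf7 on 33. In batch 1 alone 0 members were called by edgeR's test, where 9 had an unadjusted p under 0.05, and in batch 2 alone 12; with all libraries DESeq2 called 15. Of 31 alternatives each, Bcl11b lost its call in 20, Il2rb in 18, Zap70 in 15, Cd3d in 3 and Tcf7, Cd2 and Txk in 1. Nkg7 had a difference that was not called (0.81 ± 0.55, adjusted p = 0.341), but was called without the batch 2 M-MDSC libraries (1.71, adjusted p = 0.0204). The comparison shares its libraries with the age comparisons above.

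Further T cell genes from a list outside the 35 were read in the same way. Of 21 such genes in the table, 18 were tested. Of these, 14 were lower in newborn M-MDSC, beside 14.3% of all tested genes, and 6 in newborn PMN-MDSC, beside 20.5%. In either cell type 0 were higher. Grap2, a T cell adaptor, had 1.65 to 7.89 CPM in newborn M-MDSC and 28.9 to 85.5 CPM in adult M-MDSC (-3.13 ± 0.39, adjusted p = 7.96e-06), and 7.03 to 12.8 CPM in newborn PMN-MDSC and 56.1 to 86.9 CPM in adult PMN-MDSC (-2.88 ± 0.33, adjusted p = 9.87e-07). Trbc2, a constant segment of the T cell receptor beta chain, had 12 pooled counts in newborn M-MDSC and 885 in adult M-MDSC. Of 13 signalling genes that other leukocytes also use, 8 were lower and 1 higher in newborn M-MDSC, and 8 were lower and 3 higher in newborn PMN-MDSC; Rasgrp1, an activator of Ras, had log2 fold changes of -3.91 ± 0.39 (adjusted p = 6.42e-07) and -2.30 ± 0.31 (adjusted p = 5.12e-06) in M-MDSC and PMN-MDSC.

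Further NK cell genes were called in both directions in M-MDSC, though their summed level was lower in newborns of both cell types. Of 24 in the table, 7 were tested. In newborn M-MDSC 3 were lower and 1 higher, beside 14.3% and 15.9% of all tested genes. In newborn PMN-MDSC 3 were lower and 0 higher, beside 20.5% and 27.1%. The 24 genes summed to 70.6 to 126 CPM in newborn and 207 to 281 CPM in adult M-MDSC. In PMN-MDSC the sums were 27.4 to 39.9 CPM in newborns and 135.5 to 194 CPM in adults. Cd244 held 119.5 CPM of the mean sum of 157 CPM in adult PMN-MDSC. Cd244, the receptor 2B4, had 16.4 to 31.6 CPM in newborn M-MDSC and 158 to 208 CPM in adult M-MDSC (-2.83 ± 0.20, adjusted p = 1.99e-08). Sh2d1b1, an adaptor of this receptor family, had 23.2 to 36.6 CPM in newborn M-MDSC and 6.58 to 12.0 CPM in adult M-MDSC (1.69 ± 0.36, adjusted p = 0.00144). Against PMN-MDSC, 4 of 7 were higher in newborn M-MDSC and 3 of 7 in adult M-MDSC, beside 18.7% and 16.7% of all tested genes, and 0 were lower. S1pr5, a sphingosine phosphate receptor of NK cells that mouse monocytes also express, had 20.0 to 48.0 CPM in newborn M-MDSC, against 1.09 to 3.03 CPM in newborn PMN-MDSC (4.24 ± 0.56, adjusted p = 7.77e-06). The signalling adaptors that NK receptors share with myeloid cells, Tyrobp, Hcst and Fcer1g, were higher in newborn PMN-MDSC for 3 of 3 (0.83 ± 0.24, 1.88 ± 0.62 and 1.12 ± 0.27, adjusted p = 0.00848, 0.0175 and 0.00243) and were called in neither direction between newborn and adult M-MDSC. Of 8 innate lymphoid cell genes 2 were tested, and Rora was lower in newborns of both cell types (-2.74 ± 0.74 in PMN-MDSC and -2.89 ± 0.86 in M-MDSC, adjusted p = 0.00521 and 0.0159). Of all tested genes, 20.5% and 14.3% were called lower in these comparisons. Il1rl1, the other tested gene, was called in neither. It had 6.05 to 11.2 CPM in newborn and 1.8 to 9.11 CPM in adult PMN-MDSC. In M-MDSC it had 0 to 6.57 CPM in newborns and 4.39 to 7.06 CPM in adults.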

How the data were processed

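For 19 RNA-seq libraries the authors deposited estimated counts as whole numbers, with no normalization. Per the submitters' processing notes, RSEM 1.2.3, DESeq2 (its role unstated) and the build mm10 were used; the aligner and the annotation were not given in the sources used here. Per the labels' protocols, total RNA was sequenced in single-end runs. Rounding changed 0 values. Estimated counts divide reads among related genes.

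Groups, replicate numbers and batches came from the labels. The 35 genes, the other lists and the tests were chosen with earlier results of these data known. All 19 libraries entered 1 model of edgeR 4.0.16 (R 4.3.3) with coefficients for group and batch, TMM scaling and filterByExpr by group, leaving 12943 genes and 14 residual degrees of freedom; the batch term was called for 20 genes and 0 members. Quasi-likelihood p-values were adjusted by Benjamini-Hochberg over all tested genes of a comparison and called under 0.05. Fold changes are log2, with standard errors from the F statistic. CPM use the scaled library size. Where a group had 0 counts, a floor of 3 counts over the group gave a bound; with 1 to 3 counts the ratio has an exact 95% binomial interval, which covers counting error only, since without molecular identifiers reads cannot be taken as independent molecules. A single ratio was tested by exact permutation. Gene positions and sequence shared between genes came from GENCODE M21 on GRCm38 (mm10). Values in every library were to be given for members called in any comparison and for a fixed set of receptor, NK and effector genes, and genes of the other lists were named by smallest adjusted p, up to 3 per comparison; not all of these are printed, and Trbc2, Kdm5d and the pooled counts of single genes were added after their values were seen. Alternatives were DESeq2 1.42.0, its size factors, upper-quartile scaling, other expression filters, no batch term, a block of replicate numbers, single batches, the compared groups alone, scaling that leaves out haemoglobin, immunoglobulin and mitochondrial genes, the batch 1 PMN-MDSC libraries left out and each library left out. Leaving out the batch 2 M-MDSC libraries was added after the data were seen.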

Additional observations from a re-analysis of the deposited data

Results flagged for a closer look

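In 9 of 104 sets of values of 1 gene in 1 group, 1 library lay far from the others by Dixon's criterion. In newborn M-MDSC these were Tbx21 in replicate 77 (9.75 CPM, 208 counts; next 2.78 CPM), Cd27 in replicate 2 (3.21 CPM, 5 counts), Ccl5 in replicate 2 (2.56 CPM, 4 counts), Cd3g in replicate 2 (1.28 CPM, 2 counts), Txk in replicate 3 (0.927 CPM, 2 counts), and Klrb1c and Gzmb in replicate 1 (0.464 CPM, 1 count each). In adult PMN-MDSC they were Gzmb in replicate 32 (2.56 CPM, 39 counts) and Ccl5 in replicate 1 (6.58 CPM, 6 counts). Apart from Tbx21 in replicate 77 and Gzmb in replicate 32, each rests on 6 counts or fewer. Chance would give 5.2 such sets for continuous values, which is no measure for counts with many at 0. For Cd3g, Txk, Ccl5, Klrb1c and Gzmb the other newborn M-MDSC libraries were all at 0, where any count is flagged.

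The age effect differed between M-MDSC and PMN-MDSC for 7 genes by edgeR's test of the difference (age effect in M-MDSC minus that in PMN-MDSC, log2): Txk (-5.77, adjusted p = 0.00444), Cd2 (-4.03, 0.00513), Zap70 (-3.89, 0.0395), Tcf7 (-3.83, 0.00902), Cd3d (-3.25, 0.00582), Bcl11b (-2.60, 0.0454) and Il2rb (-1.73, 0.0459).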

How the results depend on the processing

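Counts are of members called by edgeR's quasi-likelihood test unless another test is named. Members lower in newborn PMN-MDSC numbered 11, against 20 with DESeq2's Wald test, 5 in batch 1 alone, 7 in batch 2 alone and 4 without the batch 1 PMN-MDSC libraries, of which 3 were among the 11; called in either direction were 30 with the compared groups alone (1 higher, 29 lower; 32.5% and 33.4% of all genes) and 27 without the batch 2 M-MDSC libraries (1 higher, 26 lower; 32.3% and 30.9% of all genes), beside 27.1% and 20.5% of all genes with all libraries. In M-MDSC the 27 became 12 with the compared groups alone, where 22 members were tested, and 30 without the batch 2 M-MDSC libraries, 26 of them among the 27. Between the cell types in newborns the 7 became 14 with DESeq2, 3 in batch 1, 18 in batch 2, 4 with the compared groups alone and 3 without the batch 2 M-MDSC libraries. In adults the 4 became 2 in batch 1, 9 with the compared groups alone and 8 without the batch 2 M-MDSC libraries. The 7 differences of age effects became 15 with DESeq2, 0 in batch 1, 12 in batch 2 and 3 without the batch 1 PMN-MDSC libraries. The causes were not tested.

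Leaving out 1 library gave 5 to 20, 25 to 28, 4 to 10, 1 to 8 and 4 to 14 called members in these 5 comparisons. The PMN-MDSC age count was 5 to 7 without newborn PMN-MDSC replicate 2, 3, 38 or 39 or adult PMN-MDSC replicate 2, 3, 33 or 34, and 20 without newborn M-MDSC replicate 77. The newborn cell type count was 4 without newborn M-MDSC replicate 79; the adult one was 1 without adult M-MDSC replicate 28 and 8 without newborn M-MDSC replicate 77. The difference count was 4 without adult PMN-MDSC replicate 3, 32 or 34, newborn PMN-MDSC replicate 2 or 37, or adult M-MDSC replicate 3, and 14 without adult M-MDSC replicate 1. Where a group was left with 1 library, that library was assumed to vary like the others.

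Upper-quartile scaling moved the median of all genes by -0.24 in the PMN-MDSC age comparison, 0.15 between cell types in newborns and 0.17 in the difference, and DESeq2 size factors moved the first by -0.17; over all genes the split between cell types in newborns was then 2934 higher and 2528 lower (2414 and 3023 with TMM), and that of the difference 1157 and 1134 (856 and 1488). Replicate numbers were not taken to pair the libraries: at most 2 are shared by any compared groups except adult PMN-MDSC and newborn M-MDSC, which were not compared. Same-numbered libraries correlated at -0.09 to 0.27, with adult PMN-MDSC and adult M-MDSC at 0.27 for replicates 1 and 3. Without values for differently numbered libraries, this cannot decide whether libraries are paired. With the replicate block the counts were 11, 26, 6, 6 and 6. Of 1869 values of single genes, 1642 kept their direction and their side of the threshold, 218 were no longer called, 5 became called and 4 changed sign. The 4 were Nkg7: its age effect in M-MDSC was -1.04 in batch 2 alone, -0.28 without adult M-MDSC replicate 1 and -0.10 without newborn M-MDSC replicate 3, against 0.18 with all libraries and -0.28 to 0.86 over all single omissions, and its difference was -0.43 in batch 2 alone, against 0.81. A count of 0 in a batch 1 library allows up to 0.990 to 3.29 CPM of any gene.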
